A study of Mus musculus with 11 samples.

Results

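The genes that encode core and linker histones were followed in mouse distal colon, by the levels of their mRNA, the spread between animals and the comparison of Nrg4 knockout with wild type. They were all genes of the deposited table whose symbol began with Hist1h, Hist2h, Hist3h, Hist4h, H1f, H2af or H3f. This gave 82 of the 22243 genes in the table, with 85 transcripts, 67 of them genes of the histone clusters (called Hist genes here) and 15 genes of the H1f, H2af and H3f kind (called variant genes here). Of the 82 genes, 55 lie on chromosome 13, 11 on chromosome 3, 4 on chromosome 11 and 4 on chromosome 6. Symbols are those of the table.

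The animals were 6 wild-type mice (WT) and 5 mice with both copies of Nrg4, the gene for the growth factor neuregulin-4, mutated (Nrg4-/-, KO), and RNA was taken from the full thickness of the distal colon. All were adults of 11 to 12 weeks, and the genotypes were mixed in 3 cages from 9 weeks of age. Mice are named by genotype and number: WT-5, WT-7, KO-1 and KO-8 shared cage A, WT-2, WT-11, KO-4 and KO-9 shared cage B, and WT-6, WT-10 and KO-3 shared cage C. Libraries were made from polyadenylated RNA, and the values are TPM (transcripts scaled to a common library total), a level per transcript length that was summed over the transcripts of a gene.

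Most histone protein is made in S phase from replication-dependent genes, which lie in clusters and lack introns. Their mRNA usually ends without a poly(A) tail, just after a short stem-loop that is bound by the stem-loop binding protein, and it is degraded when DNA synthesis stops. Variant genes stand outside the clusters, mostly give ordinary polyadenylated mRNA, and serve chromatin throughout the cell cycle, which matters in the colon, where dividing crypt cells give rise to non-dividing surface cells.

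The stem-loop is shown first, because selection of polyadenylated RNA treats a transcript that ends there differently from one that runs on. The search was for 16 bases after the stop codon, a stem of 6 bases that begins with GG and pairs with its other arm, and a loop of 4 bases that begins with T. Each line below gives 30 bases of a transcript, 5′ to 3′, from GENCODE M21 (GRCm38, the mm10 assembly), with the stem-loop in capitals. The genes are abundant members of different classes.
Hist1h1c (chr13:23739505-23739534, plus strand): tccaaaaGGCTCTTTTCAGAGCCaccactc
Hist2h2aa1 (chr3:96246025-96246054, plus strand): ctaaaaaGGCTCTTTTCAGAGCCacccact
Hist2h2aa2 (chr3:96239777-96239806, minus strand): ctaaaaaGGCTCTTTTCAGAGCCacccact
Hist1h2bg (chr13:23571836-23571865, plus strand): acccaaaGGCTCTTTTCAGAGCCacccata
Hist1h4h (chr13:23531451-23531480, plus strand): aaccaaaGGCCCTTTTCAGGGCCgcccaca
Hist1h4i (chr13:22040959-22040988, minus strand): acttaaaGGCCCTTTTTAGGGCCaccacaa
H2afx (chr9:44335233-44335262, plus strand): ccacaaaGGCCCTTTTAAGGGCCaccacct

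The first of these stem-loop sequences, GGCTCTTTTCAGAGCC, was the commonest and stood in 26 genes of the H1, H2A, H2B and H3 classes. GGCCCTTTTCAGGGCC stood in 7 genes, all of them H4 genes, and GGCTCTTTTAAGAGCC in 6. Hist1h4i shared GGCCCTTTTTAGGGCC with Hist2h4. H2afx, which encodes the H2A variant that is phosphorylated beside DNA breaks, was the one variant gene with a stem-loop, and its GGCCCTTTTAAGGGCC stood in no other of the 82 genes. Of 25082 transcripts of other genes with a 3′ untranslated region (UTR), 182 held such a sequence, or 0.726%.

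What follows the stem-loop differed between the genes. In 24 of the 67 Hist genes the most abundant listed transcript ran on for more than 60 bases, and 12 of these 24 had a poly(A) signal (AATAAA or ATTAAA) in the last 50 bases. In 22 Hist genes it ended within 60 bases of the stem-loop, and 1 of the 22 had a signal, Hist1h4h. Another 4 had a 3′ UTR with no stem-loop, and 17 had a listed UTR under 16 bases, too short to hold one. Among transcripts of other genes, 70.9% had a signal in that stretch. The stem-loop of Hist1h1c stood 840 bases before the transcript's end and that of H2afx 822 bases, against 35 bases in both Hist2h2aa1 and Hist2h2aa2.

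Levels went with these ends in part. The 24 genes that ran on had a median of 1.35 TPM over 11 mice and held 49.0% of the summed Hist mRNA. Most of this share was Hist1h1c, with 232 of the 276 TPM of the group. Of the 24, 15 reached 1 TPM in at least 5 mice, the filter used for testing. The 22 genes that ended near the stem-loop had a median of 0.384 TPM, 5 of them passed the filter, and they held 21.5%, mainly through Hist2h2aa2 and Hist2h2aa1. Of the 4 without a stem-loop, Hist1h2bc and Hist2h2be passed, and the 4 held 27.5%, mainly through Hist1h2bc at 150 TPM. Of the 17 with a short UTR, 3 passed and the 17 held 1.95%. Whether a gene's level reflects its transcription or the capture of its mRNA by the poly(A) tail was not tested.

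**Figure D1:**
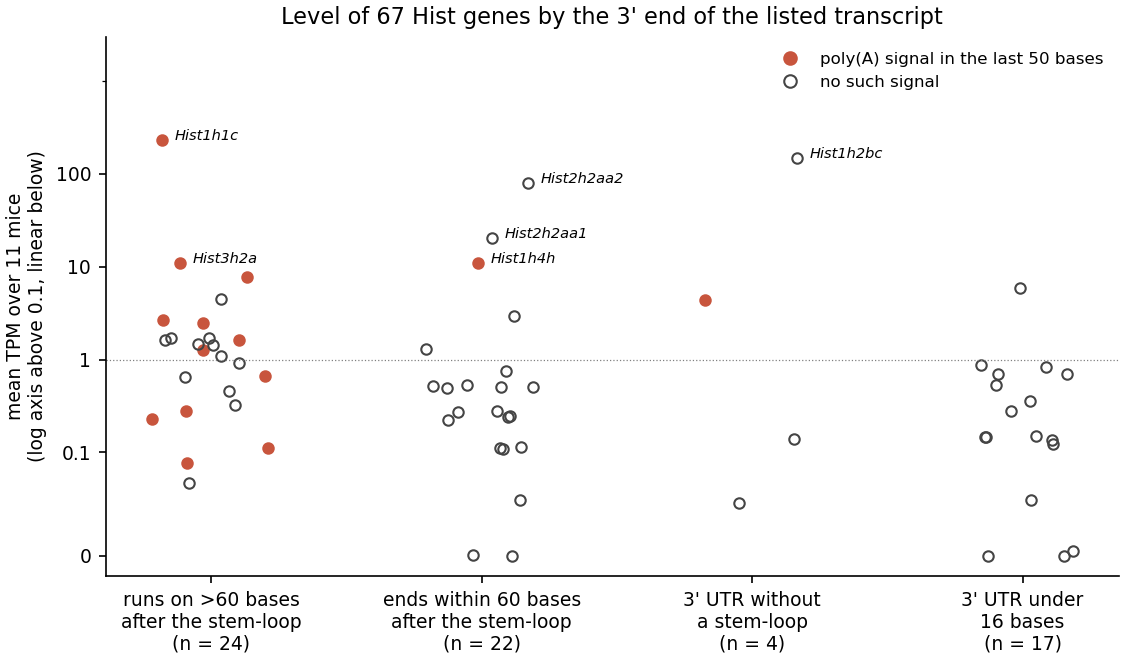
Mean TPM over 11 mice (vertical axis, logarithmic above 0.1 and linear below) of each of the 67 Hist genes, in columns by how the most abundant listed transcript ends; filled points have a poly(A) signal in the last 50 bases, and the dotted line is 1 TPM. Hist1h1c, at 232 TPM, leads the genes that run on past the stem-loop, and Hist2h2aa2, at 80.4 TPM, leads those that end near it.

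Many histone genes were at or near the floor of the table, as were many other genes. Of the 82 genes, 8 were listed at 0 TPM in all 11 mice, 3 Hist genes and 5 variant genes, and 50 had a mean below 1 TPM. The filter was passed by 35 of the 82 genes, 25 Hist and 10 variant, and by 10756 of the 22243 genes in the table. As TPM keeps no sequencing depth, no limit can be put on a value of 0.

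Across the series, summed TPM per mouse lay between 558446 and 770986, mitochondrial genes took 19.0% to 42.9% of it, and 10221 to 10822 genes reached 1 TPM. Nrg4 (chromosome 9, 55220222 to 55326844) was listed at 0 TPM in all 11 mice, so its level did not check the genotype labels. Markers of the colon wall were present in every mouse: 7 epithelial markers summed to 4891 to 9012 TPM and 4 smooth muscle markers to 1852 to 3584 TPM. Markers of lymphoid follicle B cells summed to 3.02 to 79.6 TPM in WT and 2.89 to 95.8 TPM in KO, with Mef2b at 0 in all mice. In bulk tissue, fewer cells of a type and less RNA per cell cannot be told apart.

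The variant genes carried more polyadenylated mRNA than the Hist genes. For WT the sum was 1209 ± 322 TPM (mean and SD of 6 mice) and for KO 1303 ± 587 TPM (5 mice), against 541 ± 112 and 587 ± 123 TPM for the 67 Hist genes, and it was the larger sum in every one of the 11 mice. All histone genes together took 0.202% to 0.282% of the summed TPM in 9 mice, 0.426% in WT-5 and 0.490% in KO-8.

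By protein class, polyadenylated histone H3 mRNA came almost entirely from H3f3a and H3f3b, which held 99.0% of it. Both encode the same replacement H3 protein, placed in chromatin outside S phase. Selection of polyadenylated RNA disfavours mRNA without a tail, so such shares are not of all histone mRNA in the tissue. The 12 Hist genes for H3 summed to 8.02 ± 1.94 TPM in WT and 8.65 ± 2.36 in KO. For H2A, variant genes held 69.3%, the 18 Hist genes summing to 124 ± 17.0 TPM in WT and 114 ± 28.5 in KO. H2B and H4 had no gene among the variants. Their sums were 165 ± 33.4 and 35.4 ± 10.02 TPM in WT, and 169 ± 40.1 and 30.1 ± 6.19 TPM in KO. For linker histone H1, the 6 Hist genes summed to 210 ± 84.6 TPM in WT and 265 ± 71.5 in KO.

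Within each class of Hist genes 1 gene, or in H4 and H3 a few, held most of the polyadenylated mRNA. Hist1h1c held 98.6% of the H1 sum, Hist1h2bc 89.9% of the H2B sum and Hist2h2aa2 67.5% of the H2A sum. Together with Hist2h2aa1 these genes, 4 of 67, held 85.8% of the summed Hist TPM. In H4 the first gene, Hist1h4h, held 33.6%, and in H3 the first, Hist2h3c1, held 32.5%.

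**Figure D2:**
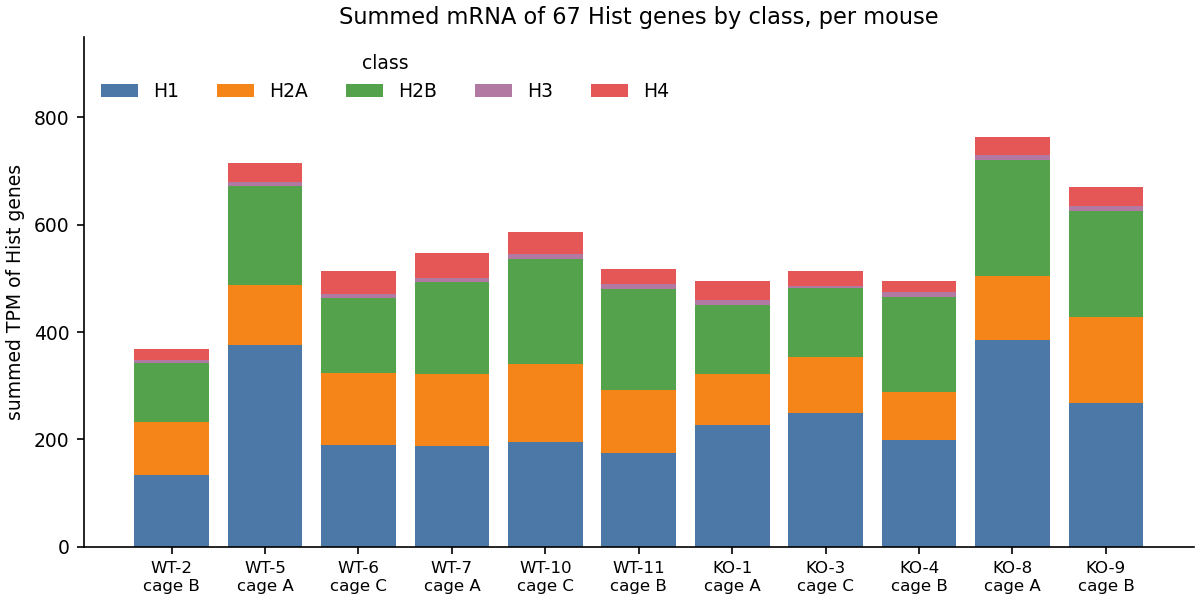
Summed TPM of the 67 Hist genes (vertical axis from 0) in each of the 11 mice, stacked by class. The sums run from 369 TPM in WT-2 to 764 TPM in KO-8, H1 and H2B taking the tallest blocks and H3 the thinnest.

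The 10 most abundant genes are given mouse by mouse. H3f3b (chromosome 11, 116021912 to 116027962, minus strand) led, with 565, 1120, 481, 504, 522 and 450 TPM in WT-2, WT-5, WT-6, WT-7, WT-10 and WT-11, and 374, 478, 471, 1456 and 448 TPM in KO-1, KO-3, KO-4, KO-8 and KO-9. WT-5 and KO-8 stood far above the other 9 mice, and the genotypes overlapped. The partner gene H3f3a (chromosome 1, 180800832 to 180813943, minus strand) had 177, 161, 196, 162, 164 and 195 TPM in the same WT mice and 183, 142, 175, 256 and 165 TPM in the KO mice. KO-8 was again the highest, but WT-5 was the lowest of the WT mice, so WT-5 stood high for H3f3b alone of the pair.

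Polyadenylated linker histone mRNA came mainly from Hist1h1c and H1f0, the latter known from non-dividing, differentiated cells. Hist1h1c (chromosome 13, 23738808 to 23740367, plus strand) had 132, 370, 187, 185, 193 and 172 TPM in the WT mice and 224, 246, 196, 379 and 264 TPM in the KO mice. H1f0 (chromosome 15, 79028450 to 79030504, plus strand) had 136, 346, 135, 136, 104 and 126 TPM in WT and 129, 164, 170, 349 and 156 TPM in KO. For both genes WT-5 and KO-8 were the highest mice. Over all mice the genotypes overlapped for both genes.

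The H2A variant with the most mRNA was H2afz, which encodes H2A.Z, a variant found at promoters. Its gene (chromosome 3, 137864487 to 137866922, plus strand) had 124, 123, 162, 149, 171 and 180 TPM in the WT mice and 156, 173, 198, 164 and 145 TPM in the KO mice. These values lay close together, with a coefficient of variation (CV, the SD over 11 mice as a share of the mean) of 14.3%. H2afx (chromosome 9, 44334694 to 44336077, plus strand) had 23.7, 45.2, 33.6, 54.1, 29.9 and 44.2 TPM in WT and 37.6, 29.6, 44.8, 47.7 and 44.8 TPM in KO. H2afj, which encodes another replication-independent H2A, had 32.5, 23.5, 34.0, 36.5, 34.1 and 34.7 TPM in WT and 27.3, 27.8, 26.9, 26.7 and 41.0 TPM in KO. WT-5 was the lowest WT mouse for H2afj, while 4 KO mice lay between 26.7 and 27.8 TPM and KO-9 stood above all others.

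The leading H2B and H2A genes of the clusters complete the 10. Hist1h2bc (chromosome 13, 23684199 to 23692908, plus strand), whose listed transcript has 2 exons and no stem-loop, had 99.2, 162, 121, 157, 180 and 163 TPM in WT and 114, 116, 158, 196 and 182 TPM in KO. Hist2h2aa2 (chromosome 3, 96239749 to 96240276, minus strand) had 68.8, 83.8, 78.2, 92.6, 102 and 75.9 TPM in WT and 72.2, 59.6, 60.2, 79.9 and 112 TPM in KO. Its neighbour Hist2h2aa1 (chromosome 3, 96245497 to 96246082, plus strand) had 18.7, 8.24, 36.8, 26.9, 25.4 and 21.3 TPM in WT and 7.21, 22.3, 11.8, 23.0 and 23.4 TPM in KO. Relative to its mean Hist2h2aa1 varied more than its neighbour, and neither separated the genotypes.

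**Figure D3:**
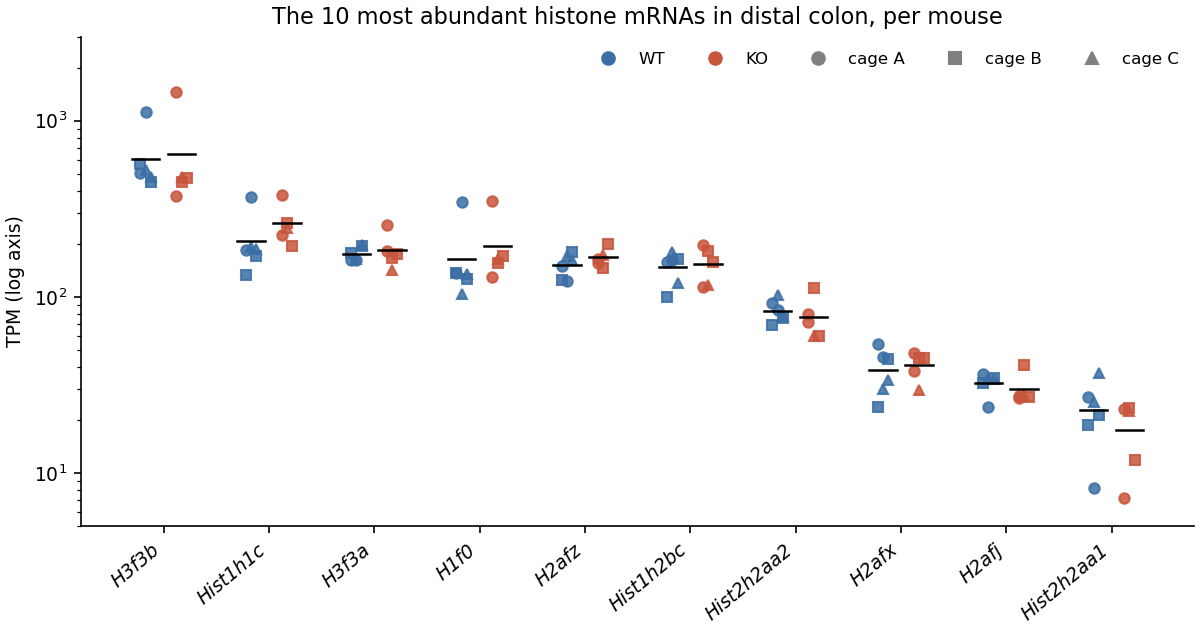
TPM (logarithmic axis) of the 10 histone genes with the highest mean, one point per mouse, WT left and KO right of each pair, shapes marking the cage and bars the group means. For H3f3b, Hist1h1c and H1f0 1 WT mouse and 1 KO mouse of cage A, WT-5 and KO-8, stand above the rest, for H3f3b at 1120 and 1456 TPM.

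Several histone genes are near copies of each other or of other genes, which limits how a read can be assigned. The share of a transcript's 31-base words found in no other gene had a median of 67.9% over the 35 tested genes and 42.6% over all 82. It was 88.6% for Hist1h1c, 82.8% for H3f3b and 93.4% for H1f0, so these values rest mostly on their own sequence. It was 19.2% for the most abundant transcript of H3f3a, whose words occur in 58 other genes, and 22.2% for H2afz, 61.5% of whose words also occur in Tmcc1. Only the most abundant transcript of a gene was scored, which left out an H3f3a transcript of 2841 bases at 27.9 TPM. The share was 0 for Hist2h2aa1, Hist2h2aa2 and Hist2h3c1, so their levels are uncertain. Hist1h2bq and Hist1h2br have identical transcripts of 381 bases and identical values in every mouse.

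Some genes that share sequence were also summed. The CV of such a sum cannot exceed that of its most variable member, so a lower value says nothing about read assignment. Hist2h2aa1 had a CV of 42.4% and Hist2h2aa2 of 20.3%, and their sum lay between 72.0 and 135 TPM with a CV of 20.6%. The H4 genes Hist1h4k and Hist1h4n, with 13.8% and 12.5% of words of their own, had CVs of 64.2% and 91.6%, and their sum had 41.6%. They are not each other's closest match, as Hist1h4k shares most words with Hist1h4a and Hist1h4n with Hist1h4m. In KO-8, Hist1h4k was at 0 and Hist1h4n at 8.25 TPM, whereas in WT-6 Hist1h4k was at 13.8 TPM and Hist1h4n at 0. How the authors' quantification split shared reads was not tested.

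The study's main question was what the loss of Nrg4 changes in the colon, and no histone gene passed the test. Of 35 histone genes, 0 were called at a false discovery rate (FDR) of 0.05 by limma with Benjamini-Hochberg adjustment over all 10756 genes tested, of which 4 (0.0372%) were called. At an unadjusted p under 0.05 the count was 0 of 35, against 3.1% of all genes, and in the upward direction alone 1.06% of all genes. No histone gene had WT and KO values that did not overlap, against 0.223% of all genes. Labels give separate mice, so p-values measure the spread between mice.

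Fold changes are KO minus WT in log2(TPM + 0.5), from the fit with cage as a term, and ± is their standard error. The added 0.5 makes changes of low genes look smaller. Of the 35 genes, 25 had a higher and 10 a lower estimate in KO (71.4% higher, against 46.8% of all genes), with a median of 0.09, against -0.01 for all genes. The 25 Hist genes split 19 to 6, with a median of 0.19, and the 10 variant genes 6 to 4, with a median of 0.05. Standard errors ran from 0.12 to 0.77. Of 3 blood markers 2 were tested, and both had higher estimates in KO with an unadjusted p under 0.05 and an adjusted p of 1.00 (limma), Hba-a1 at 0.81 ± 0.25 and Hbb-bs at 0.78 ± 0.34. The part of blood in the histone estimates was not tested.

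Among Hist genes, the smallest p belonged to Hist1h4c, an H4 gene, with 1.43 ± 0.857 TPM in WT and 2.02 ± 0.547 in KO, a log2 difference of 0.55 ± 0.25 (unadjusted p = 0.0548, limma). The linker histone gene Hist1h1c followed, with 207 ± 83.2 TPM in WT and 262 ± 70.6 in KO, a difference of 0.37 ± 0.21 and a 95% interval from -0.09 to 0.83 (unadjusted p = 0.10, limma). The adjusted p (limma) was 1.00 for both, as for every other histone gene. Without WT-5 and KO-8, an alternative chosen after seeing the data, the difference of Hist1h1c was 0.45, with an adjusted p of 0.533 (limma). The other linker genes of the cluster, Hist1h1d and Hist1h1e, had 0.34 ± 0.25 and 0.33 ± 0.24.

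Of the other Hist genes with small p, Hist3h2a, an H2A gene, had a difference of 0.25 ± 0.17 and Hist1h2af of 0.66 ± 0.51. The H3 gene Hist1h3d had 0.33 ± 0.23. The H2B genes Hist1h2bh and Hist2h2be had 0.29 ± 0.27 and 0.12 ± 0.13. The H4 genes Hist1h4k and Hist1h4n, which share most of their sequence with other H4 genes, had -0.87 ± 0.67 and -0.74 ± 0.66. With 1 mouse left out, Hist1h4k ranged from -1.22 (without KO-1) to -0.19 (without KO-8), and Hist1h4n from -1.15 (without KO-8) to -0.39 (without WT-10).

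The replacement H3 genes gave -0.08 ± 0.32 for H3f3b (95% interval -0.79 to 0.64) and 0.03 ± 0.14 for H3f3a (-0.28 to 0.33). H2afz gave 0.17 ± 0.12 (-0.09 to 0.44), and H2afv, the other H2A.Z gene, 0.08 ± 0.12. H2afx gave 0.07 ± 0.18 and H2afj -0.12 ± 0.14. The macroH2A genes H2afy and H2afy2, whose proteins are enriched in silent chromatin, gave 0.09 ± 0.16 and -0.01 ± 0.20. The linker variants H1f0 and H1fx gave 0.22 ± 0.29 and -0.20 ± 0.30. The signs of Hist1h2bg, H2afx, H3f3a and H2afy2 turned under other settings, and those of H3f3b and H1fx when single mice were left out. H2afx lies on the chromosome of Nrg4, 10.9 Mb from it.

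**Figure D4:**
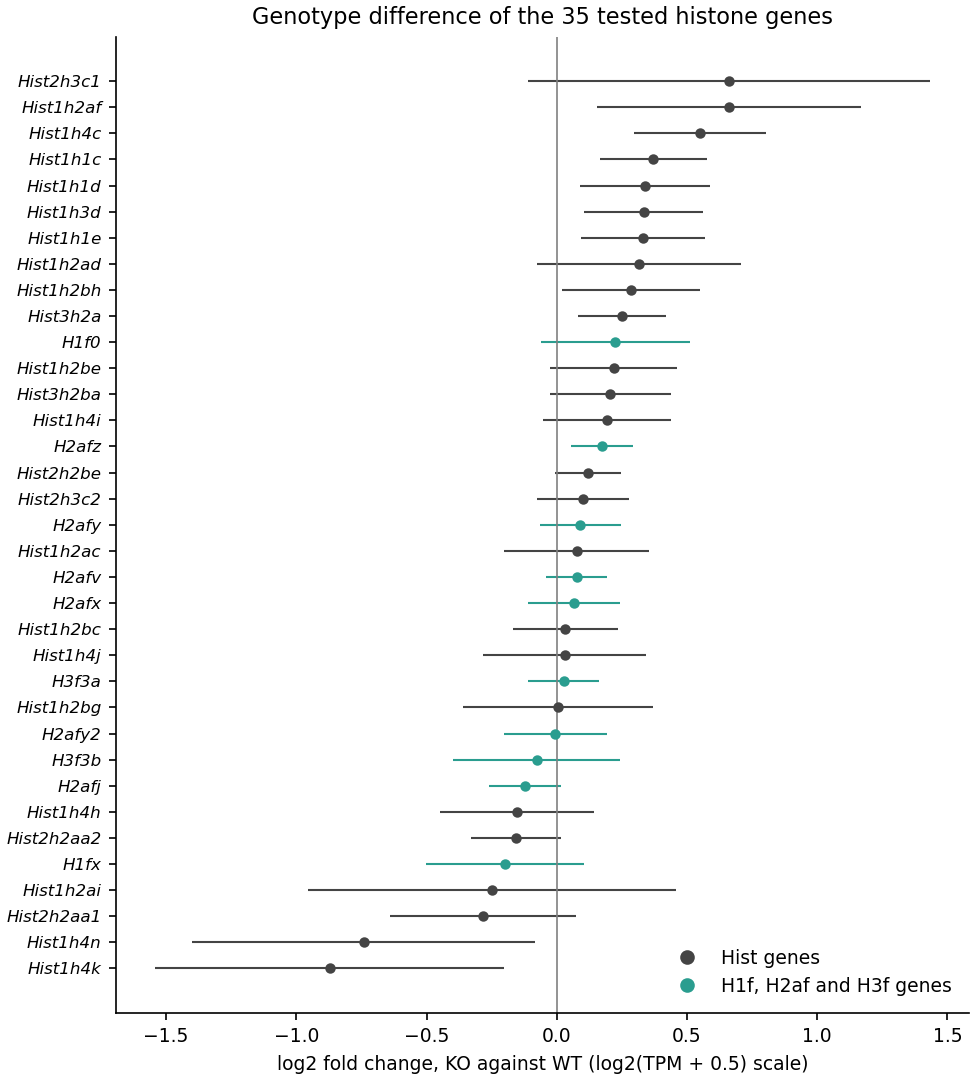
KO minus WT in log2(TPM + 0.5) (horizontal axis) for the 35 tested histone genes, ordered by estimate, with bars of 1 standard error. Estimates run from -0.87 for Hist1h4k to 0.66 for Hist2h3c1, and 0 of the 35 passed the test.

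The sum of the 67 Hist genes was 369, 714, 515, 548, 586 and 517 TPM in WT-2, WT-5, WT-6, WT-7, WT-10 and WT-11, and 494, 514, 494, 764 and 670 TPM in KO-1, KO-3, KO-4, KO-8 and KO-9. The genotypes overlapped. The log2 ratio of the means was 0.12, against a pooled SD of the log2 sum within genotypes of 0.30, and it lay between 0.0051 and 0.21 when 1 mouse was left out.

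Genes that act on histone mRNA and protein were read from lists chosen for their known roles. Of 30 symbols listed for the 3′ processing and decay of histone mRNA, general polyadenylation factors such as Cpsf1 and Wdr33 included, 27 were found. Of these, 26 were tested, 12 with higher and 14 with lower estimates in KO and a median of -0.02. The FDR was passed by 0, and 1 had an unadjusted p under 0.05 (limma). The members with the smallest p were Lsm10, a subunit of the U7 particle that guides the cut after the stem-loop, at 0.32 ± 0.13, and Srrt, which links the RNA cap to processing, at -1.67 ± 0.78. Slbp, the stem-loop binding protein, had 13.2 ± 1.55 TPM in WT and 12.3 ± 3.43 in KO.

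Of 32 histone chaperones and deposition factors all were tested, 19 higher and 13 lower, with a median of 0.01, 0 past the FDR and 0 at an unadjusted p under 0.05. Daxx, a chaperone of the replacement H3, had -0.46 ± 0.27 and Ssrp1, a subunit of the FACT complex, -0.14 ± 0.11. Of 30 genes of S phase and proliferation 29 were tested, 17 higher and 12 lower, with a median of 0.02 and likewise 0 past either threshold. Cdca5, a cohesion factor, had -0.36 ± 0.20 and Rrm2, a subunit of ribonucleotide reductase, 0.30 ± 0.17.

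Cage was compared next, by an F test over the 2 cage coefficients. Of the 35 histone genes 0 were called, against 0% of all genes, and 3 (8.57%) had an unadjusted p under 0.05, against 12.1% of all genes. These were Hist1h4c, Hist1h2bg and Hist1h4i, and H2afx came next. The genotype difference of Hist1h2bg was 0.0048 ± 0.36 and that of Hist1h4i 0.19 ± 0.25. The adjusted p (limma) of Hist1h4c was 0.343, the lowest of the 35. The Y-linked gene Eif2s3y was at 21.5 to 31.8 TPM in the 4 mice of cage A. It was at 0.052 TPM in KO-4 of cage B and at 0 in the other 6. A difference of cage A from cages B and C thus cannot be told apart from one of sex.

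Whether the genotype difference depended on cage was asked by an F test on both interaction terms. The test called 1 of 35 histone genes, Hist2h3c1 (adjusted p = 0.0168, limma), against 0.0186% of all genes. At an unadjusted p under 0.05 there were 3 (8.57%, against 3.97% of all genes), the others being H2afy and H3f3a, with Hist1h4c next. Hist2h3c1, an H3 gene (chromosome 3, 96246685 to 96248509, plus strand), was listed at 2.20, 0, 3.34, 8.4e-07, 3.36 and 3.77 TPM in WT-2, WT-5, WT-6, WT-7, WT-10 and WT-11, and at 4.37, 0, 3.81, 3.99 and 4.86 TPM in KO-1, KO-3, KO-4, KO-8 and KO-9. It was thus at or near 0 in both WT mice of cage A and in the KO mouse of cage C, and at 2.20 to 4.86 TPM in the rest. KO minus WT came to 3.22 log2 units in cage A and 0.50 in cage B, and to -2.94 in cage C, where there was 1 KO mouse. Over all cages its genotype difference was 0.66 ± 0.77, and it ranged from 0.28 without KO-1 to 1.86 without KO-3.

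This call is uncertain. All 31-base words of the Hist2h3c1 transcript also occur in other genes, and Gm20634, an overlapping gene model on the same chromosome, holds 100% of them. The neighbour Hist2h3c2 had 1.60 ± 0.496 TPM in WT and 1.63 ± 0.231 in KO. When 1 mouse was left out, the call was lost without WT-6, WT-7, WT-10, KO-1, KO-4, KO-8 or KO-9. A histone gene was still called without each of the other 3 WT mice. Without KO-3 the call was lost too, but cage C then held no KO mouse, so only cages A and B were compared. Without both WT-5 and KO-8 it was lost as well, with a lowest adjusted p (limma) of 0.0852 among histone genes.

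The spread between mice was larger at the median in the tested histone genes than in all genes tested. The measure was the residual SD of log2(TPM + 0.5) around the fit with cage and genotype. Its median was 0.42 over the 35 histone genes and 0.26 over all 10756 genes. Low genes vary more, so each gene was also set beside all genes within 0.5 log2 units of its mean TPM. Transcript length was not matched, although at equal TPM a shorter transcript gives fewer reads. The medians of those neighbours had a median of 0.30, and 29 of the 35 histone genes lay above their own neighbours' median, 10 of them in the top 10%. For the 25 Hist genes the medians were 0.43 and 0.35, with 21 above, and for the 10 variant genes 0.28 and 0.19, with 8 above. These are descriptions without a test, and the part of transcript length in the spread was not tested.

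The largest residual SDs belonged to near-identical or low genes: Hist2h3c1 had 1.49, Hist1h2ai 1.34, Hist1h4k 1.30, Hist1h4n 1.26 and Hist1h2af 0.94. Listed transcripts of Hist1h2ai, Hist1h4k, Hist1h4n and Hist1h2af had 312 to 430 bases, and that of Hist2h3c1 had 1820. Hist1h2ad at 0.71, Hist2h2aa1 and Hist1h2bg at 0.69 each, H3f3b at 0.62 and Hist1h4h at 0.56 followed. H3f3b stood apart from its like, at the 96.1 percentile of genes of similar TPM, where the median was 0.20. H1f0, with 0.55, was at the 97.8 percentile and Hist1h1c, with 0.39, at the 92.9 percentile. The smallest was that of Hist2h2be, at 0.17, the 13.6 percentile of its neighbours, in an H2B gene with a long UTR and 97.2% of words of its own.

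**Figure D5:**
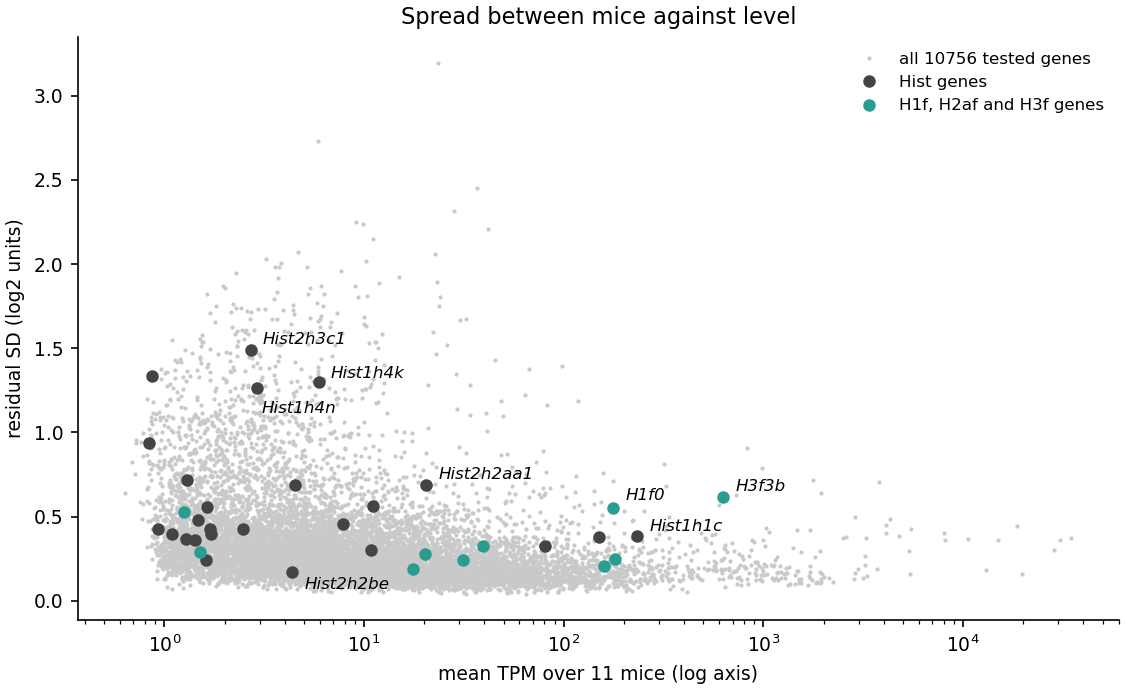
Residual SD of log2(TPM + 0.5) between mice (vertical axis) against mean TPM over 11 mice (logarithmic axis) for all 10756 tested genes (grey), Hist genes (black) and variant genes (green). Histone genes lie mostly in the upper part of the cloud at their level, with Hist2h3c1 at 1.49 and H3f3b at 0.62, and Hist2h2be lies low at 0.17.

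WT-5 and KO-8, both of cage A, were the highest mice for 6 of the 35 histone genes (17.1%), against 10.4% of all genes tested. Beside the values of H3f3b, Hist1h1c and H1f0 above, these were Hist1h2bg, with 10.2 TPM in WT-5 and 9.05 in KO-8 and 0.856 to 5.51 in the other 9 mice, Hist1h4j, with 3.03 and 3.33 against 0.559 to 1.82, and Hist1h1e, with 2.94 and 2.84 against 0.760 to 1.96. The 6 genes span linker histones, H2B, H4 and the replacement H3. Listed transcripts of Hist1h1c, Hist1h2bg, Hist1h4j and Hist1h1e ran on more than 60 bases past the stem-loop, as in 15 of the 25 tested Hist genes. Those of H3f3b and H1f0 had a 3′ UTR without a stem-loop, as in 9 of the 10 tested variant genes. H3f3a, H2afz, H2afj and Hist2h2aa2 did not have WT-5 and KO-8 on top. The cage mates WT-7 and KO-1 did not share the high levels: for H3f3b, KO-1 was the lowest of the 11 mice.

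Some other genes stood high in 1 or both of these mice. Egr1, an immediate-early transcription factor, had 354 TPM in WT-5, 75.04 in KO-8 and 0.852 to 7.30 in the others. Junb, another, had 228 and 90.6 against 40.8 to 64.4. Nr4a1, also immediate-early, had 38.4 and 21.2 TPM against 1.81 to 18.3, the 18.3 in their cage mate KO-1. Fos, by contrast, had 58.7 and 36.0 TPM, inside the others' range of 7.68 to 88.5. Mki67, a proliferation marker, had 37.4 and 27.7 TPM against 11.8 to 27.4, so KO-8 lay barely above the others. Top2a, another, had 30.8 TPM in WT-5 but 20.4 in KO-8, inside the others' range of 8.64 to 23.6. The 30 genes of S phase and proliferation summed to 866 and 758 TPM against 541 to 754. The 3 blood markers summed to 43.5 TPM in WT-5 and 81.8 in KO-8, against 9.80 to 49.7, and mitochondrial genes took 24.7% and 20.7% of summed TPM, inside the range of the other mice. The part of these in the histone levels was not tested. These genes and both mice were picked out after their values were seen.

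Promoters of 4 of the 6 genes that were highest in WT-5 and KO-8 are shown, the 4 with the highest mean TPM. Each is the 250 bases before the RefSeq transcript start (GRCm38.p6), 5′ to 3′ on the gene's strand, with 3 motifs in capitals where they stand on either strand. The first is TATAA, the core of the TATA box. The second is CCAAT, the core of the box bound by NF-Y, and the last is TTTGCAT, the core of the octamer known from H2B promoters. The RefSeq start of H3f3b lies inside the GENCODE gene span given above.
H3f3b (chr11:116024505-116024754, minus strand): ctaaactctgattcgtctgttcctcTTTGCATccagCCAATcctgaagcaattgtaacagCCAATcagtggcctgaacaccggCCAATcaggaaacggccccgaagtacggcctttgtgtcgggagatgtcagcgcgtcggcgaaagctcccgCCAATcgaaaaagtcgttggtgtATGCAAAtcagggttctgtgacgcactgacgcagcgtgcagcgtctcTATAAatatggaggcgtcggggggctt
Hist1h1c (chr13:23738557-23738806, plus strand): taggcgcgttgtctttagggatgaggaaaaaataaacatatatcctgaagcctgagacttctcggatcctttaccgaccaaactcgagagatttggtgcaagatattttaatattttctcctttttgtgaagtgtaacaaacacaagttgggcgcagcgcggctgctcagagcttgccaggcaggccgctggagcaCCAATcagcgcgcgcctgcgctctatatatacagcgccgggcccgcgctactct
Hist1h2bg (chr13:23571150-23571399, plus strand): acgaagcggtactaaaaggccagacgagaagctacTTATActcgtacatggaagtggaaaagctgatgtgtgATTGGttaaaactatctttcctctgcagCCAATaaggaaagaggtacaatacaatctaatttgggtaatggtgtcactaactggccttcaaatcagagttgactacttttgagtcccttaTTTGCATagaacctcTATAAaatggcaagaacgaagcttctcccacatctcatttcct
H1f0 (chr15:79027962-79028211, plus strand): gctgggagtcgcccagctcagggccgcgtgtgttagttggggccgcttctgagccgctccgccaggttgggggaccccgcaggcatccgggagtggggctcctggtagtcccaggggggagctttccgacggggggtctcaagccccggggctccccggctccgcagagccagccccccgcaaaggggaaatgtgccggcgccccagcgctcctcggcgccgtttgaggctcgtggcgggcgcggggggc

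H3f3b held all 3 motifs, with CCAAT 4 times, and Hist1h2bg held all 3, with CCAAT 2 times. Hist1h1c held 1 CCAAT, and H1f0 held none of them. Of the 2 genes not printed, Hist1h1e held TATAA and 1 CCAAT, and Hist1h4j held TATAA alone. These matches are letters found in a window, not bound sites. Other forms of a motif were not searched for, such as the tatatata near the end of the Hist1h1c sequence. In windows of 300 bases, from 250 before to 50 after the start, TATAA stood in 49 of 62 Hist promoters (79.0%) that could be matched by gene ID, in 2 of 14 variant promoters and in 25.5% of all 27025 promoters. CCAAT stood in 53 of 62 (85.5%), against 37.9% of all, with 3 of 12 in H4 and every one of the H1, H2A, H2B and H3 promoters. Variant promoters held CCAAT often as well, in 10 of 14 (71.4%). TTTGCAT stood in 14 of 62 (22.6%), against 4.59% of all, 7 of 18 H2A and 6 of 16 H2B promoters among them. H3f3b was the only variant gene of 14 with it. Many H2A and H2B genes stand head to head, so their windows overlap and are not independent.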

How the data were processed

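Polyadenylated RNA of 11 distal colons was read as stranded single-end reads of 75 nt, per the labels. The submitters' processing notes name CASAVA, kallisto, sleuth and mm10, with versions not given in the sources used here. The authors deposited TPM per principal transcript, per the file headers, so depth is unknown. The authors also deposited a p-value and q-value, a test score, a mean natural log of counts and a log2 ratio per transcript, all unused here. Of 29213 rows, 405 that repeated a transcript were dropped, and TPM were summed per gene.

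Genes reaching 1 TPM in 5 or more mice were fitted with limma 3.58.1 (R 4.3.3) on log2(TPM + 0.5) with a mean-variance trend, cage and genotype, adjusting by Benjamini-Hochberg over all genes tested at an FDR of 0.05. The script was tested on simulated data. Fold changes are given for the 12 histone genes with the smallest genotype p, 4 each for cage and interaction, the 10 variant genes tested, Hist2h3c1, and 2 genes of each list; other named genes were chosen after their values were seen. The members, lists and rules were chosen with earlier results of these data known. Alternatives covered the pseudocount, filter, scaling, trend, array weights, cage term, transcript summing and each mouse left out. Features of transcripts and promoters were read from GENCODE M21 and RefSeq GRCm38.p6. The pairwise correlation of log2 values between mice lay between 0.968 and 0.985 across genes.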

Additional observations from a re-analysis of the deposited data

Results flagged for a closer look

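Of 56 groups of WT or KO values examined, 11 had 1 mouse far from the others of its genotype by Dixon's ratio; chance alone gives about 1 in 20 groups. The flags fell 4 times on WT-5, 4 times on KO-8, 2 times on KO-3 and 1 time on KO-9. H3f3b was at 1120 TPM in WT-5, with 450 to 565 in the other WT mice, and at 1456 TPM in KO-8, with 374 to 478 in the other KO mice. H1f0 was at 346 TPM in WT-5, with 104 to 136 in the others, and at 349 TPM in KO-8, with 129 to 170. Hist1h1c was at 370 TPM in WT-5, with 132 to 193 in the other WT mice. Hist1h2bg was at 9.05 TPM in KO-8, with 2.08 to 3.83 in the other KO mice, and Hist1h4n at 8.25 TPM, with 0.570 to 1.18.

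H2afj, in contrast, was low in WT-5, at 23.5 TPM beside 32.5 to 36.5 in the other WT mice, and high in KO-9, at 41.0 TPM beside 26.7 to 27.8. In KO-3, Hist1h2bh was at 0.364 TPM, with 1.16 to 1.41 in the other KO mice, and Hist2h3c1 was listed at 0, with 3.81 to 4.86. The genotype difference of Hist2h3c1 differed between cages by the interaction test (adjusted p = 0.0168, limma), a gene with no sequence word of its own.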

How the results depend on the processing

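No paired analysis was possible because the genotypes share no mouse numbers; the cages that both genotypes shared were a term of the fit. No histone gene was called for genotype or cage under any alternative run (0 in each), and leaving out 1 mouse gave 0 to 0. The genotype-by-cage count ranged from 0 to 1 with 1 mouse left out and was 0 without WT-5 and KO-8, and 1 under every other setting run. Of 296 values of 30 named genes under other settings, 10 turned in sign, in 4 genes, and 0 crossed the threshold; the cause was not tested. Hist1h2bg became -0.017 with a pseudocount of 1, -0.094 with array weights and -0.029 without the cage term. H2afx became -0.012 and H3f3a -0.077 with array weights, and H3f3a -0.12 without WT-5 and KO-8. H2afy2 became 0.011 after rescaling without mitochondrial genes, 0.0020 with median-of-ratios factors, 0.015 without the cage term and 0.056 without WT-5 and KO-8. With 1 mouse left out, Hist1h2bg ranged from -0.27 to 0.26, H2afx from -0.12 to 0.16, H3f3a from -0.099 to 0.14, H2afy2 from -0.13 to 0.14, H3f3b from -0.36 to 0.20 and H1fx from -0.37 to 0.022. The summed Hist ratio ranged from 0.0051 to 0.21 and the median residual SD from 0.35 to 0.43. Rescaling without mitochondrial genes moved the median gene by -0.10 to 0.11 log2 units in a mouse. Depth is unknown, so no counting interval can be given for any value, and zeros cannot be bounded.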
